A study of Mus musculus with 8 samples.

Results

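The SOCS family was followed through the LPS response of peritoneal macrophages. It comprises Socs1 to Socs7 and its founding member Cish, 8 of the 18193 genes named on the array. The genes were taken by name, with every probe set that the platform annotation gives to that symbol alone. This gave 24 probe sets, and 0 probe sets shared between a member and another symbol. Of the 8 members, 7 passed the filter on low values and were tested. Socs1 did not.

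The cells were macrophages drawn into the mouse peritoneal cavity by thioglycollate, an irritant. The wild-type groups were left unstimulated (0 h) or given 100 ng/ml of LPS for 1, 2 or 4 h. The groups labelled Zc3h12a-/-, here called labelled-knockout, came from mice labelled as lacking the gene of Regnase-1, an RNase that degrades cytokine mRNAs, and had the same 4 times. LPS is the bacterial cell wall component sensed by TLR4. All 8 groups shared thioglycollate elicitation, Trizol RNA extraction and NuGEN Ovation amplification. Each group was 1 array, so no group had a replicate. Strain, age, sex and the number of mice pooled are not given in the sources used here, nor is the deleted part of Zc3h12a.

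SOCS proteins are feedback inhibitors of cytokine receptors that signal through Janus kinases (JAK) and STAT factors. A central SH2 domain binds phosphotyrosine on a receptor or kinase, and a C-terminal SOCS box recruits elongins B and C and a cullin ligase that ubiquitinates the bound protein. SOCS1 and SOCS3 also block JAK activity directly. In macrophages SOCS3 restrains gp130 receptors such as that of IL-6, SOCS1 restrains interferon receptors, and CISH and SOCS2 act mainly on receptors that use STAT5. SOCS4 to SOCS7 are less studied and have been linked mainly to growth factor receptors.

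Promoter windows of 4 of the 8 members were searched: Socs1, Socs3, Socs4 and Cish. Each window (RefSeq, build GRCm38.p6) spans 250 bases before to 50 bases after an annotated start. Socs2, Socs5, Socs6 and Socs7 were not searched. The elements below are shown because the tested members that LPS raised most, Cish and Socs3, hold matches to the STAT element TTCNNNGAA. Dimers of activated STATs bind this sequence. The part of these elements in the LPS rise was not tested. Socs1 holds matches to the interferon element, GAAA followed by any 2 bases and GAAA again. Capitals mark the matches, and sequences read 5′ to 3′ along the gene.
Cish, chr9:107296654-107296683, plus strand: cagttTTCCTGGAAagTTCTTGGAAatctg
Socs3, chr11:117969501-117969530, minus strand: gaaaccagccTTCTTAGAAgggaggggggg
Socs1, chr16:10785537-10785786, minus strand: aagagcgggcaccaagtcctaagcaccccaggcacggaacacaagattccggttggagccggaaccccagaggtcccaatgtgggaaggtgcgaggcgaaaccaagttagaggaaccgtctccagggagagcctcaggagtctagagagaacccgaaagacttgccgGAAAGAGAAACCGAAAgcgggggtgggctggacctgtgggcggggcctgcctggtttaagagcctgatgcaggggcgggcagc

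Counted from the annotated start, Cish carried STAT elements at bases 1 to 9 and 12 to 20. The Socs3 element lay at bases -154 to -146. That window is upstream of the annotated start of 1 transcript and inside the RefSeq span of the gene. The interferon elements of Socs1 overlapped each other, at -83 to -74 and -77 to -68. Both strands of all 32851 promoters of the same length were searched. A STAT element was present in 8.30% of them and 2 or more in 0.457%. The interferon element was present in 3.44%, with 2 or more in 0.225%. Neither the AP-1 element TGANTCA (7.81% of promoters) nor the NF-kB element (8.46%) matched in these windows of Socs1, Socs3, Socs4 or Cish, and Socs4 held none of the 4. A match is a stretch of letters, and binding was not measured.

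Values are log2 RMA levels, so a difference of 1 is a doubling of fluorescence, and levels are compared only within a probe set. Each array's background was the highest of 27 bacterial control probe sets and lay between 2.96 and 3.26. Any 2 arrays correlated at 0.933 to 0.988 over all probe sets. Averaged over the 4 times, the targeted gene was not called lower in the labelled-knockout arrays: the brighter Zc3h12a probe set differed by 0.02 (SE 0.16) and the other by -0.10 (SE 0.09). Signs were mixed over time. At 0, 1, 2 and 4 h the brighter differed by 0.61, -0.32, -0.13 and -0.07, and the other by -0.21, 0.07, -0.09 and -0.15. Whether these probes lie in the deleted part is not known, so genotypes are named as labelled. Macrophage markers were above background in all 8 of 8 cases on every array, with a summed log2 level of 15.02 to 15.18 in wild-type and 15.02 to 15.22 in labelled-knockout cells. Taken singly, 2 of the 8 were called higher and 1 lower between genotypes, where 4.75% and 8.72% of all genes were.

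Some other marker lists differed between genotypes in their summed level. The summed log2 level of 10 resident peritoneal macrophage markers was 11.12 to 11.79 in wild-type and 13.42 to 13.93 in labelled-knockout arrays. Of these 10, 9 were called higher, where 4.75% of all genes were. The sum of 9 stromal and mesothelial markers was 10.46 to 10.89 against 8.84 to 9.47, with Msln and Krt19 at background throughout. Of the 7 tested, 6 were called lower, where 8.72% of all genes were. T and NK cell markers summed to 5.84 to 6.07 in wild-type and 6.28 to 6.86 in labelled-knockout arrays, and mast cell markers to 5.91 to 6.67 and 5.58 to 5.70. These sums lie near the floor. On any array, 1 to 3 of 5 T and NK cell markers and 2 to 4 of 6 mast cell markers were above background. The 3' minus 5' difference of Actb control probe sets, a sign of RNA quality, was 2.64, 2.35, 2.43 and 2.16 on the wild-type arrays in time order. On the labelled-knockout arrays it was 3.11, 2.61, 2.52 and 2.30. The Actb difference was thus higher in labelled-knockout cells at each time, and lower on each LPS array than on the unstimulated array of its genotype. That of Gapdh was 3.01, 2.99, 3.16 and 2.98 in wild-type and 3.31, 2.95, 3.04 and 2.90 in labelled-knockout arrays, higher in the latter at 0 h and lower at 1, 2 and 4 h. The part of these markers and controls in the genotype and LPS differences below was not tested. In bulk arrays, a change in the share of a cell type and a change of RNA per cell cannot be told apart.

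**Figure D1:**
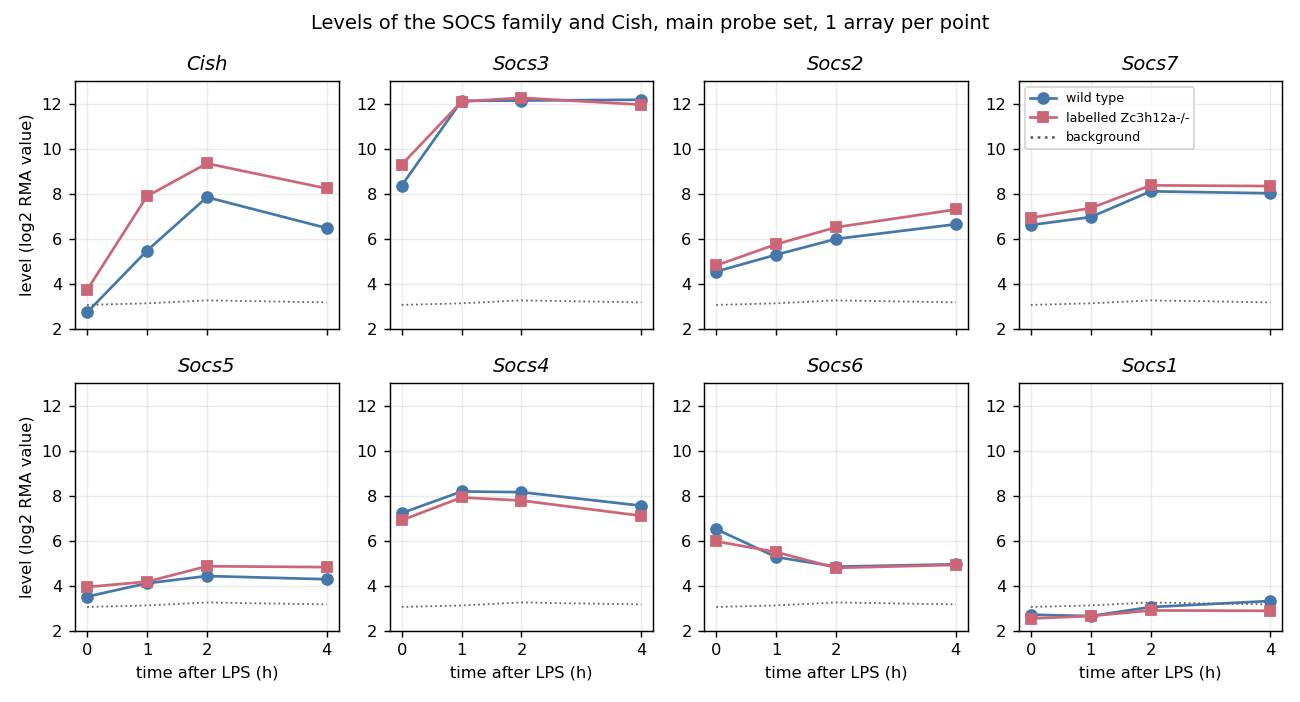
Log2 RMA level (vertical axis) of the main probe set of each member against time after LPS in hours, 1 array per point, for wild-type (circles) and labelled-knockout cells (squares), with the higher background of the 2 arrays of each time dotted. Cish rose from background to a peak at 2 h and lay higher in labelled-knockout cells at each time, Socs3 reached its plateau by 1 h, and Socs1 stayed at or near background.

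LPS raised Cish, Socs3, Socs2 and Socs4 within 1 h and lowered Socs6, and by 2 h all 7 tested members had changed. Cish and Socs3 moved most, each by more than 3 log2 units at 1 h. Cish then peaked at 2 h, Socs3 held its level, Socs2 went on rising to 4 h, Socs5 and Socs7 rose by 2 h, and Socs4 was past its maximum at 4 h. The additive limma fit over all 8 arrays, with 2 arrays per time, gave the differences from 0 h, averaged over genotypes.

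At 1 h, 4 of the 7 tested members were called higher and 1 lower at a limma adjusted p under 0.05, where 3.85% of all 12540 genes tested were higher and 6.62% lower. Cish passed the filter through its LPS arrays, so these counts describe the 7 and not all 8. At 2 h, 6 were higher and 1 lower, against 12.0% and 29.8% of all genes. At 4 h, 5 were higher and 1 lower, against 14.4% and 29.4%. The members' median difference was 0.84, 1.47 and 1.41 at the 3 times, beside -0.09, -0.16 and -0.12 over all genes. Between 1 and 2 h, 4 members were called higher, where 7.71% of genes were. Between 2 and 4 h, 1 was higher and 2 lower, where 11.3% of genes were higher and 9.72% lower.

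The all-gene shares depend on the scaling. With each array centred on housekeeping genes, the all-gene median became 0.19 at 2 h and 0.32 at 4 h. It turned the split of called genes from 1499 higher and 3740 lower to 3978 and 1895 at 2 h, and from 1809 and 3689 to 5325 and 1914 at 4 h. With cyclic loess the splits were 1878 and 2865 at 2 h and 2197 and 3052 at 4 h, and at 1 h 545 and 542 in place of 483 and 830. No member's direction against 0 h turned under either scaling.

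Cish, the founding member and a STAT5 target, is read by a single probe set (1448724_at). The wild-type series of 0, 1, 2 and 4 h read 2.73, 5.47, 7.84 and 6.47. The labelled-knockout series read 3.72, 7.88, 9.34 and 8.23. The unstimulated wild-type array was at background, and the other 7 arrays were above it. All 6 LPS arrays exceeded both unstimulated ones, and both genotypes were highest at 2 h.

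Because of that array, the change in wild-type cells is a lower bound: at least 5.31-fold at 1 h, 27.5-fold at 2 h and 10.6-fold at 4 h, from the array's background. In labelled-knockout cells the folds were 17.9, 49.1 and 22.8. The fit, which uses the array's own value, gave 3.45 at 1 h (SE 0.31, limma adjusted p = 0.00135), 5.37 at 2 h and 4.13 at 4 h. With that array at its background these averages are at least 3.29, 5.20 and 3.96. The fall between 2 and 4 h was -1.24 (SE 0.31, limma adjusted p = 0.0342), and both genotypes went the same way. Without the wild-type 2 h or 4 h array, or the labelled-knockout 2 h or 4 h array, that fall missed the threshold, with adjusted p between 0.113 and 0.169.

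Socs3, the inhibitor of gp130 signalling, is read by 3 probe sets, all above background on every array. The brightest (1455899_x_at) read 8.36, 12.12, 12.13 and 12.17 in wild-type cells and 9.29, 12.09, 12.26 and 11.95 in labelled-knockout cells. All 6 LPS arrays lay within a narrow band, well above both unstimulated arrays. The rise at 1 h was 3.28 (SE 0.27, limma adjusted p = 0.000932), followed by differences of 0.09 from 1 to 2 h (adjusted p = 0.842) and -0.14 from 2 to 4 h (adjusted p = 0.780). The size of the rise depended on the probe set. It was 4.38 for 1456212_x_at and 4.85 for 1416576_at at 1 h.

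Socs2, which restrains growth hormone and other STAT5-using receptors, was highest at 4 h. Its main probe set (1418507_s_at) read 4.54, 5.29, 5.99 and 6.64 in wild-type and 4.81, 5.75, 6.51 and 7.30 in labelled-knockout cells. The levels were in time order in both genotypes, and each labelled-knockout array was above the wild-type array of its time. The difference from 0 h was 0.84 at 1 h (SE 0.13, limma adjusted p = 0.0106) and 2.29 at 4 h (SE 0.13, adjusted p = 4.64e-05), with 0.72 of it between 2 and 4 h (adjusted p = 0.0106). The 1 h difference missed the threshold when the 1 h array of either genotype or the labelled-knockout 0 h array was left out (adjusted p 0.0543 to 0.0839) and with the mean of probe sets (0.27, adjusted p = 0.136). The step from 2 to 4 h missed it when either 2 h array or the labelled-knockout 4 h array was left out (adjusted p 0.0594 to 0.0709) and with the mean of probe sets (0.25, adjusted p = 0.126).

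The other Socs2 probe set above background on all arrays (1449109_at) read 3.29, 3.53, 3.77 and 4.77 in wild-type and 3.22, 3.82, 4.11 and 4.85 in labelled-knockout cells. It was in the same time order. Its rise was 0.42 at 1 h (adjusted p = 0.136 over 22172 probe sets) and 1.55 at 4 h (adjusted p = 0.000244). The remaining 4 Socs2 probe sets were above background on 4 arrays or fewer.

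Socs7, an adaptor-binding member with an extended N-terminus, rose late. Its probe set 1455402_at read 6.61, 6.96, 8.10 and 8.02 in wild-type and 6.92, 7.36, 8.37 and 8.34 in labelled-knockout cells. The 1 h arrays were close to the unstimulated ones and the 2 and 4 h arrays stood apart from both. The difference was 0.39 at 1 h (limma adjusted p = 0.0683), 1.47 at 2 h (SE 0.10, adjusted p = 0.000195) and 1.41 at 4 h (adjusted p = 0.000127). The 1 h difference passed with cyclic loess (0.49, adjusted p = 0.0331), with housekeeping centring (0.55, adjusted p = 0.0290) and with the stricter filter (adjusted p = 0.0338). The other Socs7 probe set above background on most arrays, 1434834_at (7 of 8), differed by 0.45 at 2 h (adjusted p = 0.0271 over 22172 probe sets) and 0.25 at 4 h (adjusted p = 0.152). With the mean of probe sets the differences were 0.54 and 0.47 (adjusted p = 0.00612 and 0.00924).

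Socs5, linked to EGF receptor turnover, changed less. Its probe set 1423349_at read 3.52, 4.11, 4.43 and 4.29 in wild-type and 3.95, 4.18, 4.87 and 4.83 in labelled-knockout cells, where levels are not far above background. In each genotype the 2 and 4 h arrays were above the 0 and 1 h arrays. The difference was 0.41 at 1 h (limma adjusted p = 0.130), 0.92 at 2 h (SE 0.14, adjusted p = 0.00328) and 0.83 at 4 h (adjusted p = 0.00400). The other Socs5 probe set, 1423350_at, above background on 7 arrays, differed by -0.17, 0.18 and -0.0064 at the 3 times (adjusted p = 0.683, 0.502 and 0.982). With the mean of both the differences at 2 and 4 h were 0.55 and 0.41 (adjusted p = 0.00463 and 0.0125). The step from 1 to 2 h, 0.50 with an adjusted p of 0.0496, was lost when any of 7 of the 8 arrays was left out, with adjusted p up to 0.267.

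Socs4, a member with a long N-terminus also linked to EGF receptor signalling, rose early and came back. The main probe set (1421275_s_at) read 7.23, 8.19, 8.16 and 7.56 in wild-type and 6.91, 7.92, 7.78 and 7.11 in labelled-knockout cells. In both genotypes the 1 and 2 h arrays were the highest. The rise at 1 h was 0.99 (SE 0.11, limma adjusted p = 0.00297), and the fall from 2 to 4 h was -0.64 (SE 0.11, adjusted p = 0.00902). That fall missed the threshold without either 2 h array or the labelled-knockout 4 h array (adjusted p 0.0571 to 0.0602), with the mean of probe sets (-0.27, adjusted p = 0.131) and on 1421274_at (-0.44, adjusted p = 0.0882). At 4 h the difference from 0 h was 0.26 (adjusted p = 0.0937). It passed with cyclic loess (0.41, adjusted p = 0.0215), housekeeping centring (0.70, adjusted p = 0.00325) and the stricter filter (adjusted p = 0.0468).

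The probe sets of Socs4 disagreed in direction. Probe set 1421274_at followed the main one, at 5.96, 6.99, 6.99 and 6.57 in wild-type and 6.22, 6.85, 6.88 and 6.42 in labelled-knockout cells. Probe set 1455142_at went down, from 5.67 to 5.23, 4.83 and 5.10 in wild-type and from 5.95 to 5.19, 5.28 and 5.02 in labelled-knockout cells. Its difference was -0.76 at 2 h (SE 0.16, limma adjusted p = 0.0125 over 22172 probe sets) and -0.75 at 4 h (adjusted p = 0.0109). With the mean of all Socs4 probe sets the differences at 1 and 2 h were 0.41 and 0.30 and missed the threshold (adjusted p = 0.0557 and 0.0622).

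Socs6, which binds insulin receptor and KIT signalling proteins, was the tested member that LPS lowered. The main probe set (1450129_a_at) read 6.51, 5.28, 4.85 and 4.95 in wild-type and 5.97, 5.50, 4.79 and 4.93 in labelled-knockout cells. All 6 LPS arrays were below both unstimulated arrays. The difference was -0.86 at 1 h (SE 0.19, limma adjusted p = 0.0374), -1.42 at 2 h (SE 0.19, adjusted p = 0.00176) and -1.30 at 4 h (adjusted p = 0.00181).

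The 1 h call for Socs6 was lost with cyclic loess, with housekeeping centring and without 6 of the 8 arrays in turn, with adjusted p up to 0.219. The calls at 2 and 4 h held under each of these. The other probe sets, all above background on every array, fell as well. Probe set 1435492_at went from 6.61 to 5.11, 3.78 and 3.96 in wild-type and from 6.95 to 5.12, 4.76 and 4.13 in labelled-knockout cells, a difference of -2.51 at 2 h. Probe set 1452764_at differed by -0.79 at 2 h.

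**Figure D2:**
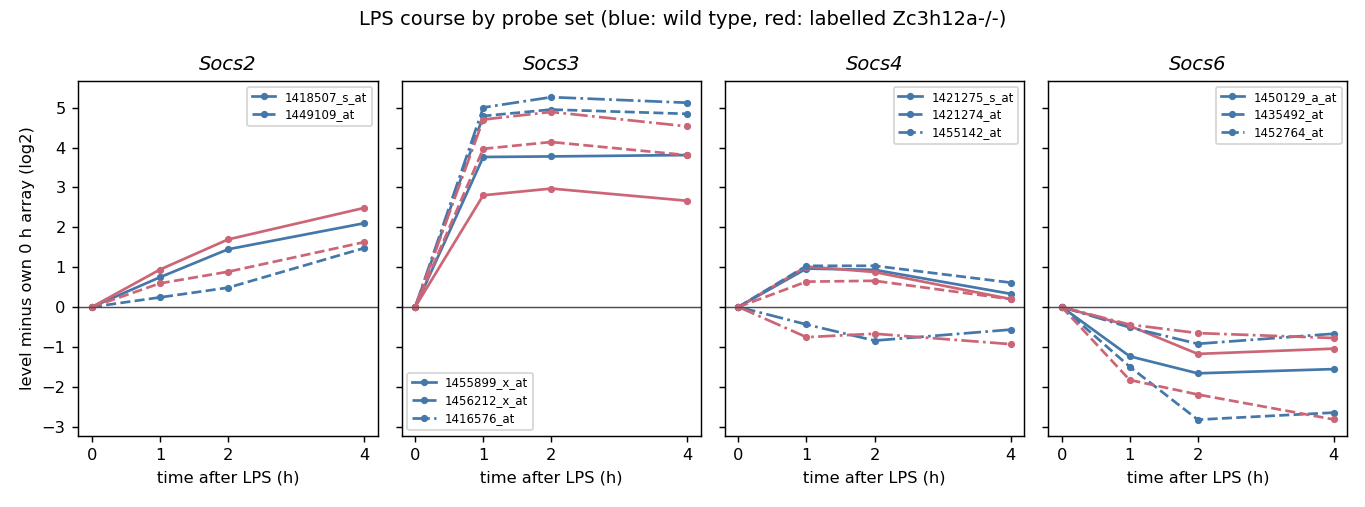
Log2 level minus that of the unstimulated array of the same genotype (vertical axis) against hours after LPS, for each probe set of Socs2, Socs3, Socs4 and Socs6 that was above background on all 8 arrays, in wild-type (blue) and labelled-knockout cells (red). The 3 Socs3 probe sets rose and the 3 Socs6 probe sets fell, whereas 1455142_at of Socs4 fell while its other 2 rose.

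Socs1, the inhibitor of interferon receptor signalling, was not well above background. Its probe set 1450446_a_at read 2.71, 2.65, 3.05 and 3.32 in wild-type and 2.54, 2.66, 2.90 and 2.89 in labelled-knockout cells. Of these, 1 array, wild-type at 4 h, exceeded its background. Against the background of the other arrays that value is at least 1.05-fold to 1.29-fold higher, at least 1.20-fold against wild-type 0 h and 1.11-fold against labelled-knockout 4 h. The other 7 arrays cannot be compared with each other for Socs1.

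**Figure D3:**
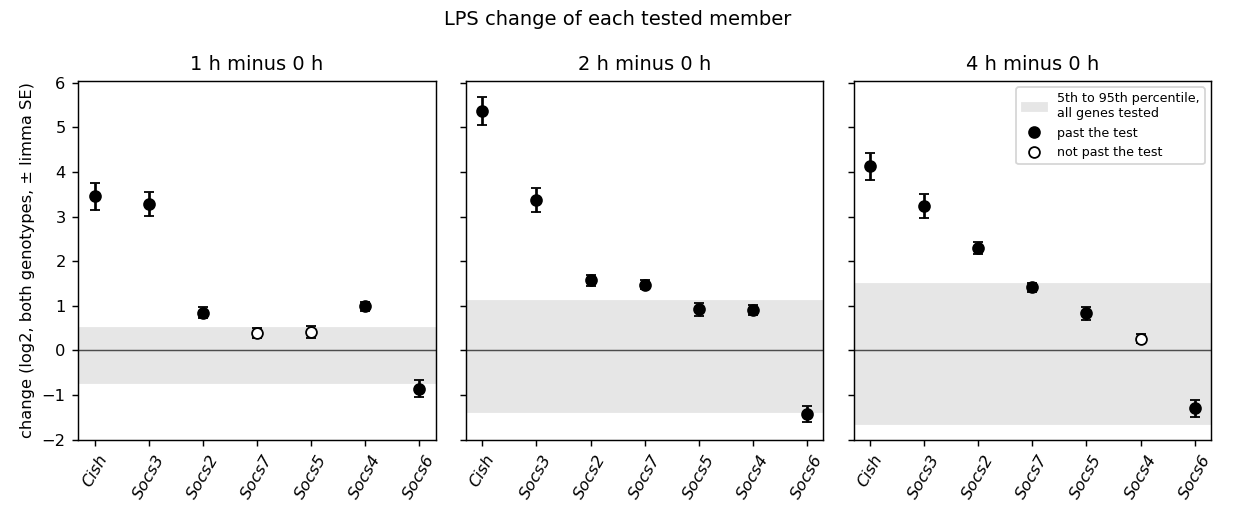
Limma log2 difference from 0 h (vertical axis, both genotypes together, bars show 1 SE) of each tested member at 1, 2 and 4 h after LPS, with the 5th to 95th percentile of all 12540 genes shaded. Filled points passed an adjusted p of 0.05, and Cish, Socs3 and Socs2 lie above the shaded band at each time.

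Cish was the member that differed most between the genotypes. Averaged over the 4 times it was 3.18-fold higher in labelled-knockout cells, a log2 difference of 1.67 (SE 0.22, 4 arrays per genotype, limma adjusted p = 0.00686). This average includes the wild-type 0 h value at background. With that array at its background the average is at least 1.59 on the log2 scale. The labelled-knockout array was higher at 4 of 4 times. The fold was at least 1.58 at 0 h, where the wild-type array was at background, then 5.35 at 1 h, 2.83 at 2 h and 3.39 at 4 h.

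Single times rest on 1 array per genotype and have no test. The averaged difference passed without each of the 8 arrays in turn, at 1.42 to 1.89 with adjusted p from 0.0114 to 0.0366. Leaving out either array of a time gives the same genotype fit, so these 8 fits are not 8 separate checks. The averaged difference also passed under 7 of 8 other settings. Of the 8, only cyclic loess (1.76) and housekeeping centring (1.62) changed it. Cish has a single probe set, so the choice of probe sets could not alter its values. Without time as a block the adjusted p was 0.880, since the LPS rise then counts as spread. P-values measure only the spread between these arrays, which the labels do not tie to separate mice.

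Smaller genotype differences were called for 3 other members. Socs2 was higher by 0.48 (SE 0.09, limma adjusted p = 0.0217) and Socs7 by 0.33 (SE 0.07, adjusted p = 0.0366). Socs4 was lower by -0.35 (SE 0.08, adjusted p = 0.0329). Each had its sign at 4 of 4 times. In all, 3 of 7 members were called higher and 1 lower, where 4.75% of all genes were higher and 8.72% lower. The members' median was 0.33 and that of all genes was -0.04.

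These 3 calls were less firm than that of Cish. Leaving out either array of a time gave adjusted p of 0.0483 to 0.0864 for Socs2, where only the 2 fits without a 0 h array passed. It gave 0.0611 to 0.116 for Socs4 and 0.0951 to 0.125 for Socs7, with 0 of 8 passing, where the 2 fits of a time are the same. None of their other probe sets above background on at least 4 arrays passed. For Socs2, 1449109_at differed by 0.16 and 1442586_at by 0.19. For Socs4, 1421274_at differed by -0.03, and 1455142_at and 1421273_at had the opposite sign at 0.15 and 0.21. For Socs7, 1434834_at differed by 0.0046.

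Socs5, Socs3 and Socs6 did not pass. Socs5 was higher at 4 of 4 times, by 0.37 (SE 0.10, limma adjusted p = 0.0615). It passed without either 1 h array (0.47, adjusted p = 0.0394), while its other probe set differed by -0.07. The averaged difference of Socs3 was 0.20 (SE 0.19, adjusted p = 0.507) and that of Socs6 was -0.10 (SE 0.13, adjusted p = 0.638). For both, the sign turned when either 0 h array was left out.

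**Figure D4:**
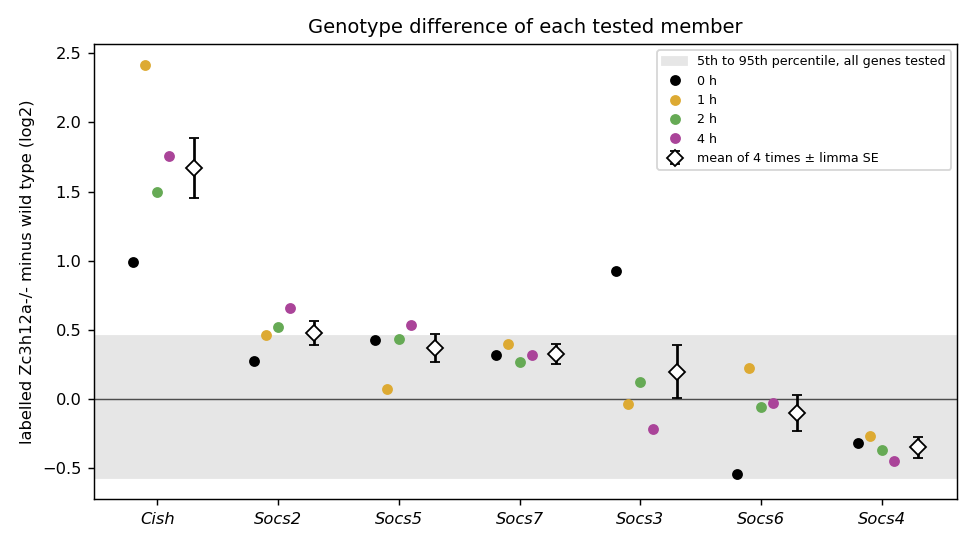
Labelled-knockout minus wild-type log2 level (vertical axis) of each tested member, with 1 point per time and the mean of the 4 times as a diamond with 1 SE from limma. The shaded band holds the 5th to 95th percentile of the averaged difference over all 12540 genes. Every Cish point lies above the band (the 0 h point uses a wild-type value at background). Socs3 at 0 h, Socs2 at 1, 2 and 4 h and Socs5 at 4 h lie above it too. The band is for averages and not for single times.

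The unstimulated arrays set Socs3 and Socs6 apart. Before LPS, Socs3 read 0.93 more in labelled-knockout than in wild-type cells, and it then differed by -0.03, 0.12 and -0.22 at 1, 2 and 4 h. Probe set 1456212_x_at did likewise, with 0.81 at 0 h and differences of -0.01, -0.0050 and -0.23 after LPS. Probe set 1416576_at had a smaller difference, 0.33 at 0 h. The change of Socs3 with LPS was 13.6-fold at 1 h in wild-type and 6.97-fold in labelled-knockout cells. For Socs6 the 0 h difference was -0.54, and the later ones were 0.22, -0.05 and -0.03. Its probe set 1435492_at had the opposite sign at 0 h, 0.34.

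A fit that set the genotype difference of the LPS arrays against that of the unstimulated ones called 0 of the 7 members and 0% of all genes. At an unadjusted limma p under 0.05 there were 2 members, Socs3 and Socs6, and 434 genes. The departure was -0.97 for Socs3 (SE 0.22, unadjusted p = 0.00631), 0.59 for Socs6 (SE 0.21, unadjusted p = 0.0380) and 0.90 for Cish (SE 0.39, unadjusted p = 0.0653). The limma adjusted p was 1.00 for each. With eBayes trend and robust settings 15 genes were called, among them Socs3 (adjusted p = 0.0256). This fit rests on a single 0 h array per genotype. The Socs3 departure depended on the probe set, at -0.89 on 1456212_x_at and -0.42 on 1416576_at.

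Over the 8 arrays, the members fell into similar and opposite courses. Pearson's r between main probe sets was 0.93 for Socs7 with Socs2 and with Socs5, and 0.92 for Cish with Socs5. Socs6 ran against the others, from -0.48 with Socs4 to -0.93 with Socs3. Socs4 stood apart, at 0.09 with Socs2 and 0.67 with Socs3. These are descriptions over 8 arrays that share 1 time course.

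Among genes outside the family, those closest to Socs3 were Ptgs2, the inducible cyclooxygenase (r = 0.997), Acod1, which makes itaconate (0.997), and Il1a (0.996). Closest to Cish were Ankrd66 (0.987), G3bp1, a stress granule protein (0.983), and Rrs1, a ribosome assembly factor (0.974). For Socs2 they were Dnaja2 (0.991), Ptx3 (0.987) and Ptges (0.986), and for Socs7 Rab11a, Ctu1 and Slc7a11 (0.990 to 0.989). For Socs5 they were Vasn, Prok2 and Tnip2, an A20-binding inhibitor of NF-kB (0.993 to 0.990). For Socs6 they were Tnni2, Fam53b and Hdac7 (0.998 to 0.988), and for Socs4 Arg2, Cks2 and Actg1 (0.980 to 0.963).

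Among cytokines that act through JAK-STAT, 18 of the 29 on the array passed the filter. Of these 18, 8 were called higher at 1 h, 13 at 2 h and 11 at 4 h, where 3.85%, 12.0% and 14.4% of all genes were, and 0 lower. Both unstimulated arrays of 8 of the 18 were under the filter, so these were kept only through LPS arrays where they are high, and the counts are a description. Il6, a gp130 ligand, differed by 8.78 at 4 h (SE 0.69, limma adjusted p = 0.000163), and Lif, another, by 5.80 at 2 h (SE 0.18, adjusted p = 1.18e-05). Each was at background on 1 of its 0 h arrays, so these are fitted values. Ifnb1, a type I interferon, was at least 11.7-fold higher at 1 h.

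Between genotypes, 1 of these cytokines was called higher, Lif (0.62, SE 0.13, limma adjusted p = 0.0278), and 1 lower, Ebi3, a subunit of IL-27 (-0.85, SE 0.10, adjusted p = 0.00491). Over all genes 4.75% were higher and 8.72% lower. Il6, a known Regnase-1 target, differed by 1.85 (SE 0.49) with an adjusted p of 0.0574, and the labelled-knockout array was higher at each of the 4 times.

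The receptors changed in both directions. Of 26 tested, 0 were called at 1 h, where 3.85% of all genes rose and 6.62% fell. At 2 h, 6 rose and 3 fell (12.0% and 29.8% of all genes), and at 4 h, 8 rose and 4 fell (14.4% and 29.4%). Their medians were -0.02, -0.05 and 0.13, beside -0.09, -0.16 and -0.12 over all genes. Il2ra, 1 of the 26, was kept by the filter only through LPS arrays. Il15ra rose by 4.95 at 4 h (SE 0.30, limma adjusted p = 6.47e-05) and Il13ra1 by 2.32. Il6ra, the IL-6 binding chain, was lower by -2.66 (SE 0.18, adjusted p = 8.54e-05), and Ifngr1, a chain of the interferon-gamma receptor, by -2.14. At 1 h all 26 missed the threshold, and the smallest adjusted p was 0.0748 for Il10ra.

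Between genotypes, 3 receptors were called higher and 2 lower, where 4.75% and 8.72% of all genes were, with a median of -0.17. Lepr, the leptin receptor, did not exceed background in any of the 4 wild-type samples, and labelled-knockout cells held at least 2.62-fold more. Lepr passed the filter only through labelled-knockout arrays, where it is high, so the count of receptors called higher is a description. Csf2ra, a chain of the GM-CSF receptor, which signals through STAT5, was higher by 0.35 (SE 0.07, limma adjusted p = 0.0290). Csf3r, the G-CSF receptor that SOCS3 restrains, differed by -1.11 (SE 0.16, adjusted p = 0.00915). Il3ra differed by -0.89 (SE 0.09, adjusted p = 0.00260). Csf3r is also among the neutrophil markers, whose summed log2 level was 6.73 to 7.39 in wild-type and 6.16 to 6.66 in labelled-knockout arrays. That sum includes Csf3r itself, so it is not a separate sign of neutrophils. Of the 3 neutrophil markers tested, Csf3r alone was called, and Ltf and Elane were at background on every array. The part of neutrophils was not tested.

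Of the 11 Janus kinases and STAT genes tested (Irf9 included), 1 rose and 0 fell at 1 h (3.85% and 6.62% of all genes). At 2 h, 4 rose and 3 fell (12.0% and 29.8% of all genes), and at 4 h, 6 rose and 1 fell (14.4% and 29.4%). The share that fell at 2 h is near that of all genes. At 4 h Jak2 rose by 3.30 (SE 0.11, limma adjusted p = 1.03e-05), Stat2 by 3.29 and Stat5a by 2.34. Between genotypes 0 were higher and 1 was lower (4.75% and 8.72% of all genes), so the lower count is near the share over all genes. It was Stat4 (-0.86, SE 0.19, adjusted p = 0.0352), which was at background on 3 of 4 labelled-knockout arrays. Stat5b differed by -0.44 (adjusted p = 0.0528).

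Of 13 other inhibitors of the pathway, 4 rose and 5 fell at 2 h and again at 4 h. Over all genes 12.0% rose and 29.8% fell at 2 h and 14.4% and 29.4% at 4 h, so the share that fell is near that of all genes. Usp18, which blocks the type I interferon receptor, rose by 5.78 at 4 h (SE 0.28, limma adjusted p = 2.89e-05) and the phosphatase gene Ptpn2 by 1.78. Cblb, a ubiquitin ligase, was lower by -1.89 at 4 h (SE 0.11, adjusted p = 5.73e-05). Between genotypes 0 were higher and 3 lower (4.75% and 8.72% of all genes), Cbl (-0.42), Pias1 (-0.45) and the phosphatase gene Ptpn1 (-0.73), with adjusted p of 0.0246, 0.0255 and 0.0305.

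Of the 8 tested partners of the SOCS box in the cullin ligase, 1 rose and 0 fell at 1 h (3.85% and 6.62% of all genes). At 2 h, 2 rose and 1 fell (12.0% and 29.8% of all genes), and at 4 h, 3 rose and 1 fell (14.4% and 29.4%). Ube2f, which attaches NEDD8 to cullin-5, rose by 1.29 at 1 h (SE 0.13, limma adjusted p = 0.00238). Eloc, elongin C, rose by 0.40 at 2 h and 0.47 at 4 h, and Rnf7, the RING subunit, was lower by -0.56 at 4 h. Between genotypes 1 of 8 was lower, Nedd8 (-0.41, SE 0.08, adjusted p = 0.0275), a count near the 8.72% of all genes.

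Of 17 tested genes of other SOCS box proteins, which carry the box on other binding domains, 3 fell at 1 h, 8 at 2 h and 5 at 4 h, where 6.62%, 29.8% and 29.4% of all genes did. At the same times 0, 0 and 2 rose, against 3.85%, 12.0% and 14.4%. The 4 h counts are near the shares over all genes, which depend on the scaling as given above. Their medians were -0.23, -0.50 and -0.04, beside -0.09, -0.16 and -0.12 over all genes. Rab40c was lower by -2.41 at 2 h (SE 0.17, limma adjusted p = 0.000200). Asb13 was lower by -0.97 at 2 h and higher by 1.30 at 4 h. Between genotypes Asb11 (2.23, SE 0.15, adjusted p = 0.000703) and Asb4 (1.21, SE 0.19, adjusted p = 0.0119) were higher and Spsb4 was lower (-1.52, SE 0.11, adjusted p = 0.00111), 2 and 1 of 17 beside 4.75% and 8.72% of all genes. Asb11 was at background on 1 of 4 wild-type arrays.

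Lists of STAT target genes were counted in the same way, and STAT activity itself was not measured. Of 15 STAT3 targets, 7, 6 and 8 were called higher at 1, 2 and 4 h, where 3.85%, 12.0% and 14.4% of all genes were, with 1 lower at 2 h. Junb rose by 3.99 at 1 h and was 1.92 above 0 h at 4 h. Of 12 STAT5 targets, 3, 3 and 4 rose and 0, 3 and 2 fell, where 6.62%, 29.8% and 29.4% of all genes fell. Of these 12, 2 were kept by the filter only through LPS arrays. Ccnd2, a cyclin, rose by 6.58 at 4 h (SE 0.12, limma adjusted p = 3.85e-06).

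Between genotypes, 0 of the STAT3 targets were higher and 1 was lower, Pim1 (-0.56, SE 0.08, limma adjusted p = 0.0111), where 4.75% of all genes were higher and 8.72% lower. Lcn2, an iron-sequestering protein on the same list, had a larger difference of 4.09 (SE 1.04) that missed the threshold (adjusted p = 0.0511). It read 4.69, 4.07, 8.10 and 10.82 in wild-type and 11.02, 10.84, 10.91 and 11.27 in labelled-knockout cells, higher in the latter at each time. Pim1 is on the STAT5 list too, where Igf1 was the 1 gene called higher (0.91, SE 0.08, adjusted p = 0.00151) and the median was -0.14. Cish, itself a textbook STAT5 target, was higher in labelled-knockout cells, as was Igf1, whereas Pim1 was lower. The part of STAT5 in these differences was not tested.

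Of the 13 STAT6 targets, 9 were higher in labelled-knockout cells and 0 lower, where 4.75% and 8.72% of all genes were, with a median of 1.25. Retnla differed by 4.76 (SE 0.08, limma adjusted p = 2.54e-06), Ccl24 by 4.13, Chil3 by 3.87 and Arg1 by 2.72 (SE 0.11, adjusted p = 9.23e-05). These are genes of macrophages activated by IL-4. With LPS, 0 of the 13 were called at 1 h, where 3.85% of all genes rose and 6.62% fell. At 2 h, 1 rose and 2 fell (12.0% and 29.8% of all genes), and at 4 h, 3 rose and 3 fell (14.4% and 29.4%). The genotype difference of these targets ran alongside the resident macrophage markers given above, and the part of those cells was not tested.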

How the data were processed

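The authors deposited log2 values for 45101 probe sets on 8 Affymetrix arrays. The submitters' processing notes name RMA, with no version, and quantile normalization hides a change in total mRNA. Names came from the platform annotation, in which 34958 probe sets had 1 symbol, 932 several and 9211 none. A gene was represented by its single-symbol probe set of highest mean. It was tested where its second-highest array reached 3.16, the median of all values, which kept 12540 of 18193 genes. Limma 3.58.1 in R 4.3.3 (lmFit, eBayes) was fitted with genotype and time as additive terms, and once more with a term for genotype after LPS. P-values were adjusted by Benjamini-Hochberg over all genes tested, at a threshold of 0.05. Other probe sets were fitted over the 22172 that passed the same filter. The fits were tested on simulated data. A gene at background on every array of the dimmer group has only a bound, given as "at least", and where only some arrays are at background the fitted value is given. Precision is limited by how few arrays there are.

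The members and lists were chosen with earlier results of these data known. Named were all members, the 4 genes per list with the smallest p for the genotype and each LPS comparison, and the 3 genes most correlated with each member, of which examples are given. A further list is not reported here. Alternatives were cyclic loess, housekeeping centring, dropping the filter or raising it to the 75th percentile of values, averaging a gene's probe sets, dropping _x_at and _s_at probe sets, trend and robust settings in eBayes, no time block, a 2-fold minimum and leaving out each array.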

Additional observations from a re-analysis of the deposited data

How the results depend on the processing

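With 1 array per genotype and time, the direction and calls of Cish and Socs3 against 0 h held under each alternative, and 7 members at 2 h and 6 at 4 h were called without each array. Of the members' 732 log2 differences under alternatives, 615 kept their direction and call, 82 lost the call, 12 gained it and 23 turned. The causes were not tested, except that leaving out an array leaves fewer samples.

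Members called for the genotype difference went from 4 to 1 with the mean of probe sets, 2 without _x_at and _s_at probe sets, 0 with no time block, 1 with a 2-fold minimum, and 1 to 2 without each array. At 1 h they went from 5 to 3 with the mean, 2 with the 2-fold minimum, and 3 to 4 without each array. From 1 to 2 h they went from 4 to 2 without _x_at and _s_at probe sets, 2 with the 2-fold minimum, and 1 to 4 without each array. From 2 to 4 h they went from 3 to 1 with the mean, 1 with the 2-fold minimum, and 0 to 3 without each array. For the changed genotype difference, 0 became 1 with trend and robust eBayes.

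Directions turned for small differences. For genotype, Socs6 was 0.0029 with loess, 0.067 with the mean, 0.38 on 1435492_at and -0.21 to 0.046 without each array. Socs3 was -0.044 to 0.34 without each array. On other probe sets Socs4 was 0.21 and 0.15 and Socs5 was -0.072. From 1 to 2 h, Socs4 was 0.10 with housekeeping centring and 0.011 without _x_at and _s_at probe sets, and Socs3 was -0.063 to 0.25 without each array. From 2 to 4 h, Socs7 was 0.031 with housekeeping centring, Socs6 was -0.014 with the mean, and without each array Socs5 was -0.20 to 0.022 and Socs3 -0.42 to 0.14. The changed difference of Socs7 was -0.054 with housekeeping centring, -0.011 with the mean and -0.027 to 0.039 without each array, and that of Socs5 was -0.17 to 0.059.

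Over all genes, the 1690 genotype calls became 150 with no time block, 333 with a 2-fold minimum and 597 to 1237 without each array. With the 2-fold minimum the LPS calls went from 1313 to 542, 5239 to 2025 and 5498 to 2570 at 1, 2 and 4 h, from 2794 to 959 between 1 and 2 h and from 2631 to 994 between 2 and 4 h. Without each array they were 454 to 1086, 3141 to 5248, 3951 to 5425, 1201 to 2613 and 1331 to 2471. The 0 calls of a changed difference became 15 with trend and robust eBayes and 0 to 6 without each array. Time as a block matched the genotypes by time. No pairing by mouse or cell preparation was possible, because the labels give no replicate numbers and each group is 1 array. The changed difference could not be fitted without a 0 h array.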
